A study of Mus musculus with 12 samples.

Results

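The stem and multipotent progenitor cells of mouse bone marrow, chosen here by a gene rule, numbered 1342 among 32701 c-Kit-positive cells (4.10%). A cell was taken as a member if it held at least 1 UMI (unique molecular identifier, which marks 1 captured RNA molecule) in at least 4 of the 8 genes Hlf, Flt3, Adgrl4, Cd34, Egfl7, Ctla2a, Msi2 and Hoxa9. Its summed Mpo, Elane and Ctsg (granule genes of myeloid progenitors) had to stay below 10 and Car1 (an erythroid gene) below 5 per 10000 UMIs, with no UMI of the B lineage genes Vpreb1 or Cd79a and fewer than 2 UMIs of the platelet gene Pf4. The rule was applied in the same way to every library, and it uses measured values, so the levels of these genes are a description of the choice and not a result.

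Transcriptomes of single c-Kit+ marrow cells, enriched on magnetic columns, were measured in 12 libraries with 1 library for each of 4 genotypes at each of 3 time points. All mice were C57BL/6 animals, and the labels give an age of 8–12 weeks in the account of the pIpC injections, so mice were older at harvest at T2 and T3. They received pIpC, a double-stranded RNA that evokes interferon and through it switches on the Mx1-Cre recombinase. E2-KO mice carried Mx1-Cre and a floxed Ezh2 allele pair, G12D mice carried Mx1-Cre and an inducible NRas G12D knock-in allele on 1 chromosome, and G12D/E2-KO mice carried both. WT mice received the same injections but had no Mx1-Cre, so the recombinase itself separates WT from every mutant and its part cannot be told apart from that of the alleles. T1 lay 2 weeks after pIpC, T2 followed at 2 months and T3 at 4 months. Mx1-Cre acts in blood cells of every lineage and in other interferon-responsive tissues, and the number of mice behind a library is not given in the sources used here. The 3 time points serve as the replicates of a genotype and are also part of the model. The p-values therefore measure the spread between libraries that remains after the time effect shared by the genotypes. That spread mixes animal, preparation and time effects that differ between genotypes.

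Hematopoietic stem cells renew themselves over the life of the animal, and multipotent progenitors, their immediate offspring, have lost long-term renewal but still yield all blood lineages. Flt3, a receptor for a growth factor, marks multipotent progenitors that lean to lymphoid fates, whereas Hlf, Mecom and Procr mark cells nearer to the stem cell. Ezh2 is the main enzyme of Polycomb repressive complex 2 (PRC2), which methylates histone H3 on lysine and keeps genes of other fates and of fetal life silent. NRas is a small GTPase that relays cytokine receptor signals to the ERK kinases, and the G12D form stays switched on. In mice, activated NRas drives a myeloproliferative neoplasm, and the series asked how loss of Ezh2 changes that course.

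Several features of the libraries bear on what follows. The G12D T1 and G12D/E2-KO T1 tables shared cells. In all, 2896 of 5648 G12D T1 cells (51.3%) matched a G12D/E2-KO T1 cell, 1494 of them with the same count in every gene, and Ezh2 stood at 20.9 CPM (UMIs of a gene per 1000000 UMIs) in the matched against 86.3 CPM in the other G12D T1 cells. They stayed in G12D/E2-KO T1 and were dropped from G12D T1, which took 154 of 305 members from the G12D T1 table. With the tables as deposited, calls were lost for Bmi1, Cenpv, Chchd7 and Gm2a in G12D/E2-KO against G12D, for Bmi1, Chchd7 and Hnrnpa0 in E2-KO against WT, for Cap1 and Dynlt1c in G12D against WT, for Cst7 in G12D/E2-KO against WT, for Pcna in T2 against T1 and for the Gm7102 interaction. No other of the 66 library pairs shared cells in this way. The libraries held 12636998 to 23646292 UMIs in all and 277915 to 1074478 in members, so CPM below, taken over all UMIs of the members of a library, rests on fewer molecules in some libraries than in others. The WT, E2-KO and G12D libraries at T3 held Xist and the other 9 libraries held Ddx3y, so the sex of the animals differed between libraries, and sex-linked genes were not named. RNA of mature cells was present in members of every library. Late granulocyte genes (S100a8, S100a9, Camp and Ngp) reached 118, 56.0 and 123 per 10000 UMIs in members of WT T1, T2 and T3 against 13.8 to 59.3 in the mutant libraries. Globin genes stood at 34.5, 86.6 and 19.04 per 10000 UMIs in members of the WT libraries, 68.8 in E2-KO T3 and 3.60 to 15.3 in the other mutant libraries, and 21 of the 1342 members held 200 or more UMIs per 10000 of these genes or of globin genes.

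The chosen cells carried stem and progenitor genes that the rule had not used. Procr, the endothelial protein C receptor on stem cells, stood at a median of 20.2 times the level of the other cells of the same library, Mecom, a transcription factor needed for stem cell renewal, at 14.8 times, Gcnt2 at 14.0 times and Meis1, a Hox cofactor, at 8.43 times. Each was higher in members in 12 of 12 libraries. Procr and Mecom were low all the same, at medians of 13.2 and 15.7 CPM in members, and Procr was at 2.04 CPM in its lowest library. A UMI was found in a median of 6.73% of members for Procr and 7.63% for Mecom, against 38.2% for Gcnt2 and 33.4% for Meis1. Kit, the stem cell factor receptor on which all cells were sorted, was 2.28 times higher. Slamf1, which encodes the CD150 protein of long-term stem cells, was not: it lay at 0.824 times the other cells, with a median of 1.60 CPM in members and values from 0 to 3.03, a level too low to tell how many members carry it. For the rule genes themselves the ratios ran from 6.18 (Msi2) to 22.1 (Flt3). Among genes outside the rule, the ones with the highest ratio in their lowest library included Sox4, a transcription factor of early progenitors, at 7.56 times, the co-stimulatory receptor Cd27 at 9.74 times, the purinergic receptor P2ry14 at 15.4 times and Angpt1, a ligand of the Tie2 receptor, at 8.12 times, next to the uncharacterised Gm5111 at 26.1 times. These ratios carry no test, since the members were chosen by their transcripts.

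**Figure D1:**
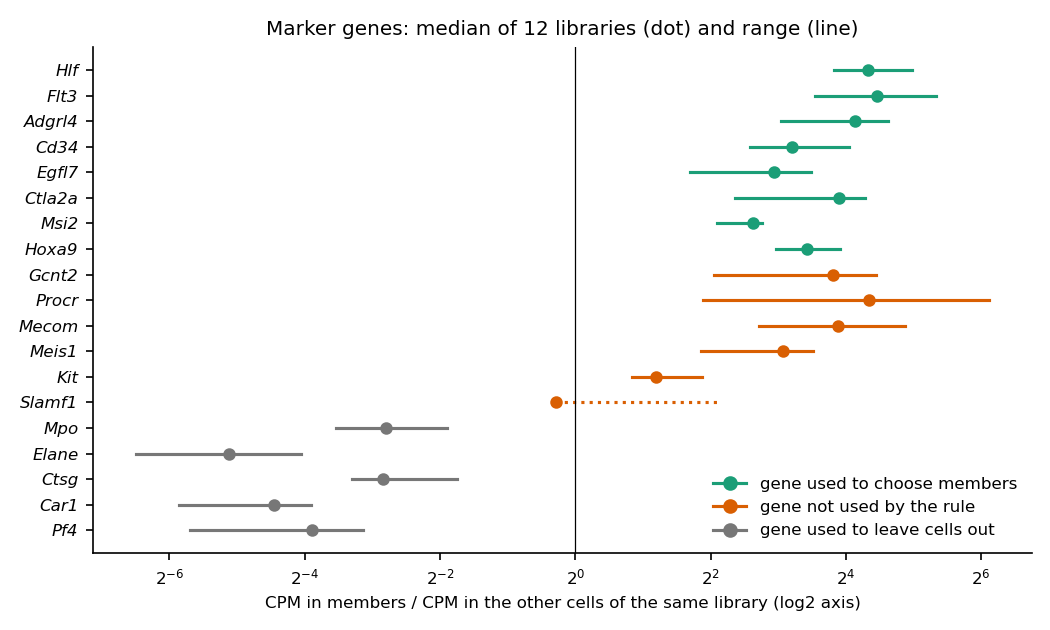
Ratio of CPM in members to CPM in the other cells of the same library (log2 axis) for the 8 genes of the rule, 6 marker genes the rule did not use and 5 of the 7 genes used to leave cells out (Vpreb1 and Cd79a, absent from members, are not drawn). Dots are medians of 12 libraries and lines the range, and a dotted line marks a gene with a library at 0. Procr, Mecom, Gcnt2 and Meis1 lie to the right of 1 in every library, and Slamf1 straddles 1.

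The edge of the rule was not sharp. There were 574 cells with exactly 3 of the 8 genes that met every other condition, 555 members with exactly 4, and 373 members with 6 or more. Median UMI numbers of members ran from 4061 to 6567 per library, and a cell with more UMIs meets the rule more easily. Among the 1208 members that held at least 3000 UMIs and were thinned to that number, the leading components carried only 1.22%, 0.739% and 0.623% of the variance. The first component ran from H2afz, Stmn1, Ran and Hmgb2, genes of chromatin and growth in dividing cells, to ribosomal protein genes. The second ran from ribosomal protein genes (Rpl41, Rpl37a and Rplp1) to H2-D1, Ifitm1, Cd63 and Malat1 and set libraries apart, with mean scores from −4.78 in G12D T2 and −4.68 in WT T1 to 7.80 in E2-KO T3. The third set mitosis genes (Ube2c, Cenpa, Cenpf and Birc5) against genes of S phase entry and biosynthesis (Ung, Srm and Hells).

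The series asked whether the mutations change how many such cells the marrow holds. Members made up 4.26, 3.55 and 4.27% of the cells in WT at T1, T2 and T3 and 3.07, 2.62 and 2.47% in E2-KO, so that every E2-KO library lay below every WT library. Among cells with at least 3000 UMIs, each thinned to 3000, they overlapped, at 3.38, 1.55 and 1.92% in WT and 1.74, 1.38 and 1.35% in E2-KO. Thinned values here and below leave out cells with fewer UMIs, which kept 2651 of 2844 cells in WT T2 and 1710 of 2586 in E2-KO T3. In G12D the shares from all UMIs were 5.49, 3.11 and 4.94%, and in G12D/E2-KO they were 5.19, 5.47 and 4.09%. The means were 4.03 ± 0.411% for WT, 2.72 ± 0.310% for E2-KO, 4.51 ± 1.25% for G12D and 4.92 ± 0.730% for G12D/E2-KO (SD, n = 3 libraries). Members are those of the gene rule used here and not of the study's own annotation of cells. These are shares of c-Kit+ cells, which move with the number of other cells in the library too.

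Over the 6 pairs of libraries set apart by the NRas allele, those with G12D held 1.34 percentage points more members. They were higher in 5 of 6 pairs (two-sided exact sign-flip permutation test p = 0.0625, against a smallest possible p of 0.0312). Over the 6 pairs set apart by Ezh2, the deleted libraries held 0.451 points fewer members (higher in 1 of 6 pairs, exact p = 0.5). In both sets the pairs with WT also differ in Mx1-Cre, and the T3 pairs with G12D/E2-KO also differ in sex. The Ezh2 pairs split by NRas background, with a mean difference of −1.31 points between E2-KO and WT and 0.404 between G12D/E2-KO and G12D, and that split was not tested. Thinned to 3000 UMIs per cell, the NRas difference was 0.620 points (exact p = 0.188) and the Ezh2 difference −0.0995 (exact p = 0.781). Neither share difference passed the threshold in these paired tests. Without pairing, the NRas difference of 1.34 points had an exact permutation p of 0.0281. Leaving out 1 library gave Ezh2 differences from −1.01 to −0.182 points. The rule genes that could move with genotype are part of this count, and without Flt3 in the rule the NRas difference was 0.934 points (exact p = 0.125).

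**Figure D2:**
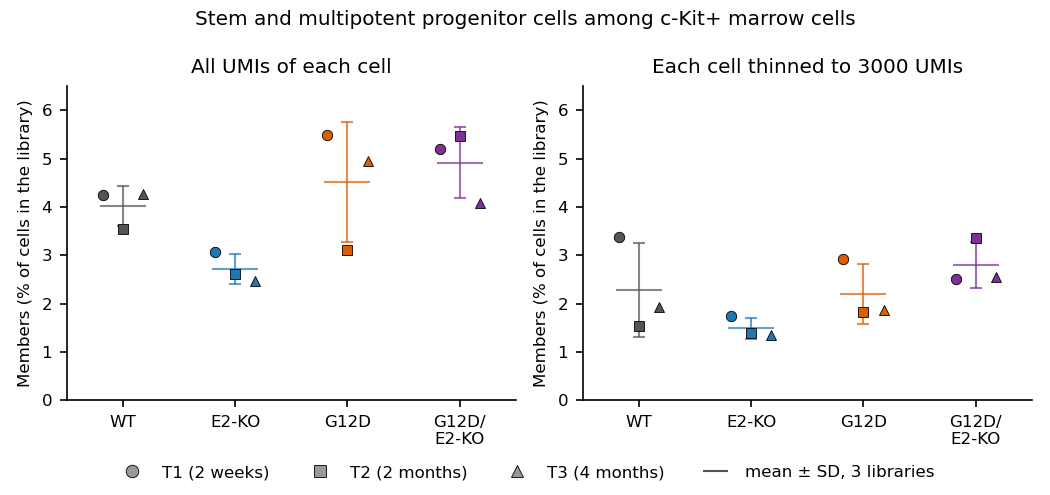
Members by genotype as a percentage of all cells of each library, from all UMIs (left), and of its cells with at least 3000 UMIs, each thinned to 3000 UMIs (right). Points are libraries (circle T1, square T2, triangle T3) and bars the mean ± SD of 3 libraries. E2-KO libraries lie lowest in the left panel (2.47 to 3.07%).

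The targeted genes were examined first. Ezh2 stood at 149, 96.9 and 119 CPM in WT members at T1, T2 and T3 and at 103, 103 and 126 in G12D. It was 45.6, 26.1 and 25.2 CPM in E2-KO members and 36.3, 18.01 and 28.6 CPM in G12D/E2-KO members. All 6 deleted libraries lay below all 6 intact ones, and Ezh2 fell by 1.81 on the log2 scale in E2-KO against WT (SE 0.261, adjusted p = 0.000169). Between G12D/E2-KO and G12D it fell by 2.02 (SE 0.227, adjusted p = 1.21e-06, edgeR's quasi-likelihood test with Benjamini-Hochberg adjustment, as for all adjusted p-values below). The reads count the 3′ end of a transcript, and where the deleted part lies is not given in the labels, so this is transcript level and not proof of excision in each cell. With each cell thinned to 3000 UMIs, an Ezh2 UMI was found in 29.6 ± 6.37% of WT members and 10.2 ± 3.74% of E2-KO members. Nras was at 116, 72.7 and 107 CPM in WT and 110.1, 83.3 and 96.6 CPM in G12D (log2 difference 0.09, SE 0.197). Counts of Nras do not see the amino acid change, so they do not check the G12D label.

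Few other genes passed the threshold in the comparisons of Ezh2-deleted with Ezh2-intact libraries. Of 6772 genes tested in members, 19 changed in E2-KO against WT (0.281% of the genes), 13 higher (0.192%) and 6 lower (0.0886%). In G12D/E2-KO against G12D 9 changed (0.133%), 4 higher (0.0591%) and 5 lower (0.0738%). The unadjusted p was below 0.05 for 575 and 587 genes. These comparisons share no library, and 7 genes were called in both, which is 36.8% of the 19 and 77.8% of the 9. E2-KO T3, the library with the highest scores on the second component, had 30 genes at least 2-fold outside the range of all other libraries at 40 CPM or more, among them Gm42418 at 1022 CPM against at most 310.2. Without it, 8 genes were called in E2-KO against WT. Besides Ezh2 itself, Bmi1, Cenpv and Chchd7 rose and Arf5 and Gm2a fell in both, and a processed copy of a tropomyosin gene, Tpm3-rs7, went up in one and down in the other.

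Bmi1, the subunit of Polycomb repressive complex 1 (PRC1) best known for stem cell renewal and for silencing the Cdkn2a locus, was the one Polycomb gene to rise. It measured 31.0, 31.8 and 30.9 CPM in WT and 25.2, 14.7 and 29.1 CPM in G12D. In E2-KO it measured 83.7, 86.0 and 64.8 CPM, and in G12D/E2-KO 79.1, 84.7 and 104 CPM. The Ezh2-deleted libraries lay between 64.8 and 104 CPM and the intact ones between 14.7 and 31.8, with no overlap. Between E2-KO and WT the log2 change amounted to 1.40 (SE 0.272, adjusted p = 0.0108), and between G12D/E2-KO and G12D to 1.81 (SE 0.247, adjusted p = 4.55e-05). In the other cells of the same libraries it was 1.98 and 2.12, and passed the threshold there too, where 1.45% and 1.46% of 12725 genes did. The call against WT was lost without any of the WT libraries, or without E2-KO T1 or T2 (adjusted p between 0.0566 and 0.166), while the call against G12D held without each of the 12 libraries. With the tables as deposited neither was called, and the change against G12D was 1.21 (adjusted p = 0.0926).

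Cenpv encodes a centromere-associated protein, and Chchd7 a small mitochondrial protein. Cenpv was at 22.7, 31.8 and 46.3 CPM in WT and 96.4, 88.6 and 97.2 CPM in E2-KO members, and at 8.38, 31.9 and 26.8 CPM in G12D and 94.9, 67.8 and 71.6 CPM in G12D/E2-KO. Again all deleted libraries exceeded all intact ones, with log2 changes of 1.52 (SE 0.312, adjusted p = 0.0239) against WT and 1.95 (SE 0.311, adjusted p = 0.000999) against G12D. In the other cells of the same libraries the Cenpv changes were 0.39 and 0.56 and did not pass the threshold (adjusted p = 0.559 and 0.440). Whether members and all other cells differ in this was not tested. Chchd7 ran from 51.4 to 80.3 CPM in the intact and from 117 to 151 CPM in the deleted libraries, with log2 changes of 0.91 (adjusted p = 0.0398) and 1.29 (adjusted p = 0.000169). The Chchd7 call against WT was lost in 13 of 21 alternatives, with DESeq2 and without any of the WT libraries or E2-KO T1 or T3 among them, while the call against G12D held without each of the 12 libraries. The Cenpv call against WT was lost without WT T1 or T2 or any of the E2-KO libraries, and the call against G12D without G12D T1, with the tables as deposited and with only these 2 genotypes in the fit.

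The genes that rose in both comparisons are shown with the sequence just upstream of their start, because promoters rich in CG pairs are the usual sites of PRC2. The runs are the 250 bases before the RefSeq gene start on GRCm38.p6, on the strand of the gene, for Bmi1 (chr2:18676768-18677017, plus strand) and Cenpv (chr11:62539262-62539511, minus strand). Capitals mark CG pairs. Chchd7 had no entry.
Bmi1: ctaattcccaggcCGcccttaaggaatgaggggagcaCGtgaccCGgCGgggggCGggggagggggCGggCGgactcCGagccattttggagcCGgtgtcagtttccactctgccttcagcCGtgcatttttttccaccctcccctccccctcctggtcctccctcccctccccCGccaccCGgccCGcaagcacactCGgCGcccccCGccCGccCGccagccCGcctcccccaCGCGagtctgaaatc
Cenpv: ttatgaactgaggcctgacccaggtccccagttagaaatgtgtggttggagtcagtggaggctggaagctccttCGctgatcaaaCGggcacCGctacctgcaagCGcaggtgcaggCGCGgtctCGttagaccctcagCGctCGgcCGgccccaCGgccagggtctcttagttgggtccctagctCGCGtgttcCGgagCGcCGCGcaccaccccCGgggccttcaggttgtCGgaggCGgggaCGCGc
The Bmi1 run holds 21 CG pairs, a number that 16.1% of 27018 RefSeq promoters of the same length reach, and the Cenpv run holds 22, which 14.6% reach. The median promoter holds 6. No chromatin mark was measured, so these are sequence features only. The background was all such promoters and not those of the genes tested here, and promoters of genes that fell are not shown.

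Arf5 and Gm2a fell. Arf5, a small GTPase of the Golgi, was at 322, 319.5 and 264 CPM in WT and 242, 262 and 237 CPM in G12D, against 88.8, 107 and 97.2 CPM in E2-KO and 101, 103 and 110.4 CPM in G12D/E2-KO. The groups did not overlap, and the log2 changes were −1.56 (SE 0.184, adjusted p = 6.71e-06) against WT and −1.28 (SE 0.167, adjusted p = 2.04e-05) against G12D, called without each of the 12 libraries. Arf5 lies at chr6:28423560-28426602 and Ezh2 on the same chromosome at chr6:47530139-47595341. Gm2a, the lysosomal activator of ganglioside breakdown, was at 116, 124 and 94.0 CPM in WT and at 27.9, 23.5 and 17.99 CPM in E2-KO (log2 change −2.26, adjusted p = 0.000411). It fell from 69.2, 71.1 and 36.1 CPM in G12D to 38.2, 10.6 and 8.18 CPM in G12D/E2-KO (log2 change −1.55, adjusted p = 0.0193), where the G12D/E2-KO T1 library lay above the lowest G12D library. The Gm2a call against WT was lost without E2-KO T1 (adjusted p = 0.0572), and that against G12D without E2-KO T1 or T2, G12D T1 or T2, or G12D/E2-KO T2.

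**Figure D3:**
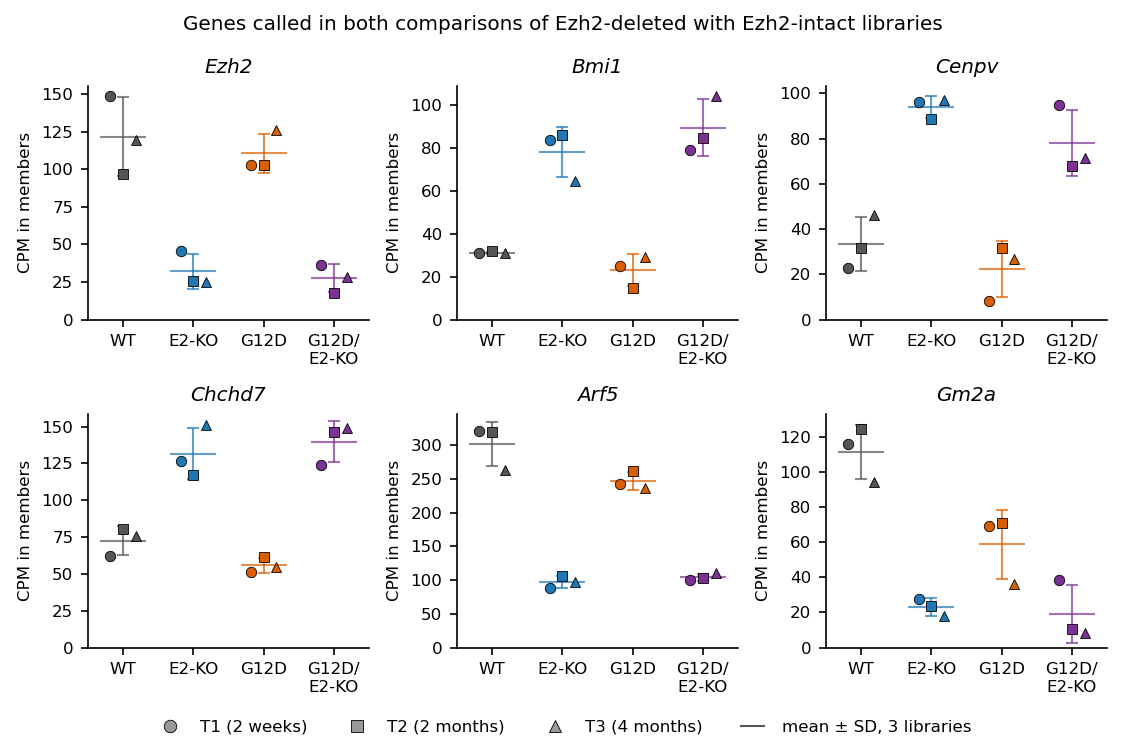
CPM in members of each library for 6 genes called in both comparisons of Ezh2-deleted with Ezh2-intact libraries. Points are libraries (circle T1, square T2, triangle T3) and bars the mean ± SD of 3 libraries. Bmi1, Cenpv and Chchd7 are higher in all 6 deleted libraries than in all 6 intact ones, and Ezh2 and Arf5 lower.

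The other genes that rose in E2-KO against WT held Uqcrq, a subunit of respiratory complex III (382 ± 87.7 CPM in WT and 681 ± 60.6 in E2-KO), Atox1, a copper chaperone (246 ± 5.94 and 425 ± 59.0 CPM), Ap3s1, Hnrnpa0 and BC005537, of which Uqcrq, Atox1 and Hnrnpa0 were named after their values were seen. The falls held Lcn2 and Chil3, which are granulocyte genes. The calls of Uqcrq, Atox1, Hnrnpa0, Ap3s1 and BC005537 were each lost without WT T1 and without E2-KO T1, and in 5, 7, 10, 9 and 3 of 21 alternatives in that order. Lcn2 measured 229, 89.4 and 201 CPM in WT and 40.6, 26.1 and 39.6 CPM in E2-KO. All 10 tested late granulocyte markers were lower in E2-KO than in WT, with a median log2 change of −1.98, beside a median of all genes within 0.02 of 0. Without the 21 members that held much granulocyte or globin RNA, Lcn2 and Chil3 were no longer called (log2 −1.28 in place of −2.23 for Lcn2, adjusted p = 0.420 and 0.222). Their calls were lost in 11 and 10 of 21 alternatives, Lcn2 without any of the WT or E2-KO libraries. The summed late granulocyte markers ran from 5976 to 13062 CPM in WT members and from 1473 to 3631 in E2-KO members, and from 39212 to 154136 in the other cells of the 12 libraries. The part of these markers in the other changes against WT was not tested.

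By chromosome, 6 of the 19 genes called in E2-KO against WT lie on chromosome 11 (Gm11713, Gm2a, Atox1, Uqcrq, Cenpv and Pttg1), which is 31.6% of the calls against 8.60% of the tested genes with coordinates. Gm2a, Atox1, Uqcrq and Pttg1 lie between 43420250 and 55461239 on it. What the mice carry there beside their named alleles is not given in the sources used here.

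In G12D against WT 12 of 6772 genes changed (0.177%), 10 higher (0.148%) and 2 lower (0.0295%), with 385 at an unadjusted p below 0.05. These groups also differ in Mx1-Cre. Cd52, a small glycosylated surface protein of leukocytes, was at 314, 256 and 227 CPM in WT and at 653, 358 and 469 CPM in G12D, with every G12D library above every WT library (log2 change 0.99, SE 0.191, adjusted p = 0.0120). Cd48, whose protein separates multipotent progenitors from Cd48-negative stem cells, was at 167, 148 and 89.8 CPM in WT and at 208, 248 and 218 CPM in G12D (log2 change 0.85, SE 0.180, adjusted p = 0.0319). H2-Q4, a class I antigen-presenting gene of the Qa family, rose from 28.9, 27.3 and 22.5 CPM to 85.9, 36.8 and 65.2 CPM (log2 change 1.35, adjusted p = 0.0212). The actin-binding gene Cap1 (14.9 and 41.2 CPM in WT and G12D on average) and the dynein gene Dynlt1c (29.3 and 61.7 CPM) rose too, while the tubulin gene Tuba4a and the histone gene Hist1h4i fell.

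None of these calls was firm. The Cd48 call was lost without any of the WT or G12D libraries or without E2-KO T2 (adjusted p between 0.0527 and 0.663), the Cd52 call without any of the WT libraries or without G12D T1 or T3 (0.109 to 0.518), and the H2-Q4 call without WT T1 or T3 or G12D T1 or T3 (0.233 to 0.555). The Cap1 call was lost without any of the WT libraries, E2-KO T2 or G12D T1 or T3, and the Dynlt1c call without those or E2-KO T1. The Tuba4a call was lost without WT T1 or T3 or G12D T1 or T3, and the Hist1h4i call without WT T1 or T2 or G12D T2 or T3. The direction stayed in every fit. Thinned to 3000 UMIs, Cd48 was detected in 28.2 ± 11.7% of WT, 33.9 ± 2.70% of E2-KO, 41.5 ± 1.42% of G12D and 46.6 ± 1.99% of G12D/E2-KO members, and in 2.61 to 5.18% of late granulocytes. Cd52 was detected in 51.4 ± 8.32, 56.1 ± 3.61, 67.9 ± 16.1 and 74.7 ± 3.11% of members in the same order, and in 88.8 to 98.6% of late granulocytes.

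Lists fixed for RAS signalling, interferon and antigen presentation are short beside the 0.177% of all genes called, so a count of 0 is no result about them. Of 12 tested genes of an ERK output list (Dusp, Spry, Etv and related genes), 0 passed the test in G12D against WT and 9 lay above 0, with a median log2 change of 0.30 beside a median of 0.00 for all genes. In G12D/E2-KO the median was 0.23, again with 0 called. The 25 tested type I interferon genes had a median of 0.58 in G12D with all 25 above 0 and 0 called. Their summed level in G12D was 2247, 1639 and 4193 CPM at T1, T2 and T3, so that the T3 library was far above the others, and it was 2156, 1726 and 1761 CPM in WT. Ifit1 reached 81.5 CPM and Ly6a, which encodes Sca-1, 256 CPM in G12D T3, above all other libraries for both. The 8 tested class II antigen-presenting genes had a median of 0.66 in G12D against WT and −1.29 in G12D/E2-KO against G12D, with 0 called in either. G12D T3 stood apart here too, with H2-Aa at 89.6 CPM against at most 30.9 elsewhere and H2-Eb1 at 121 against at most 33.9.

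In G12D/E2-KO 43 genes changed against WT (0.635%), of which 20 rose (0.295%) and 23 fell (0.34%), with 747 at an unadjusted p below 0.05. With only G12D/E2-KO and WT libraries in the fit the count was 28, against 62 for E2-KO and 39 for G12D fitted in the same way, so the order of the 3 counts depends on the fit. Ezh2, Arf5, Gm2a, Bmi1, Cenpv and Chchd7 changed as in E2-KO (log2 changes −2.06, −1.47, −2.47, 1.55, 1.29 and 0.99, with the Cenpv call lost in 9 and the Chchd7 call in 2 of 21 alternatives), and Cd52 rose as in G12D (605, 502 and 417 CPM, log2 change 0.997, adjusted p = 0.00540). Since these comparisons share the WT libraries, their likeness is not an independent observation.

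Crip1, a LIM-domain protein, was at 514, 744 and 602 CPM in WT, 903, 824 and 1043 CPM in E2-KO members, 764, 745 and 798 CPM with G12D alone and 895, 1222 and 1329 CPM in G12D/E2-KO (log2 change against WT 0.93, SE 0.174, adjusted p = 0.00525). Cst7, a protease inhibitor of cytotoxic and myeloid cells, averaged 66.2 ± 38.7 CPM in WT and 159 ± 34.2 CPM in G12D/E2-KO (adjusted p = 0.0102), the fatty acid carrier Fabp5 89.0 ± 19.8 and 169 ± 29.2 CPM, and Cbx3, a heterochromatin protein, 385 ± 37.4 and 649 ± 66.3 CPM. The Crip1 call was lost without WT T1 or T3 (adjusted p between 0.0809 and 0.105), and so was the Cst7 call (0.115 to 0.136). Fabp5 lost its call without those or G12D/E2-KO T1 (0.0907 to 0.115) and Cbx3 without those or G12D/E2-KO T1 or T2 (0.0646 to 0.330), while the Cd52 call was lost without WT T1 or T3 or G12D/E2-KO T2 (0.0538 to 0.0952).

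Of the 23 genes that fell, none was in the lymphoid or stem cell identity lists. Cd27, a co-stimulatory receptor, went from 211, 194 and 188 CPM in WT to 143, 117 and 75.6 CPM in G12D/E2-KO (log2 change −0.77, adjusted p = 0.0430), Ltb (lymphotoxin beta) from 145, 60.6 and 80.0 to 50.3, 44.5 and 22.5 CPM (−1.12, adjusted p = 0.0161) and Cd24a from 363, 351 and 292 to 192, 161 and 229 CPM (−0.74, adjusted p = 0.0276). In each case the groups did not overlap. The Cd27 call was nonetheless lost in 16 of 21 alternatives, DESeq2 and 11 of 12 left-out libraries among them, the Ltb call in 8 and the Cd24a call in 9. Gclm, of glutathione synthesis, fell by 1.04 and Blvrb, the biliverdin reductase of erythroid cells, by 1.46 on the log2 scale. The Blvrb call was lost without the 21 members rich in granulocyte or globin RNA and without WT T1, WT T3 or G12D/E2-KO T1 (0.0624 to 0.103), and the 5 tested late erythroid markers had a median of −2.53 in this comparison, with 0 called. The nuclear RNA Malat1 fell from 7283 ± 1139 to 4245 ± 393 CPM (adjusted p = 0.00888). The Gclm call was lost without WT T1 or T3 or G12D/E2-KO T2, and the Malat1 call without WT T1 or T3 or G12D/E2-KO T1. Fabp5, Cbx3, Cd27, Ltb, Cd24a, Gclm and Malat1 were not among the 8 largest changes and were named after their values were seen.

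**Figure D4:**
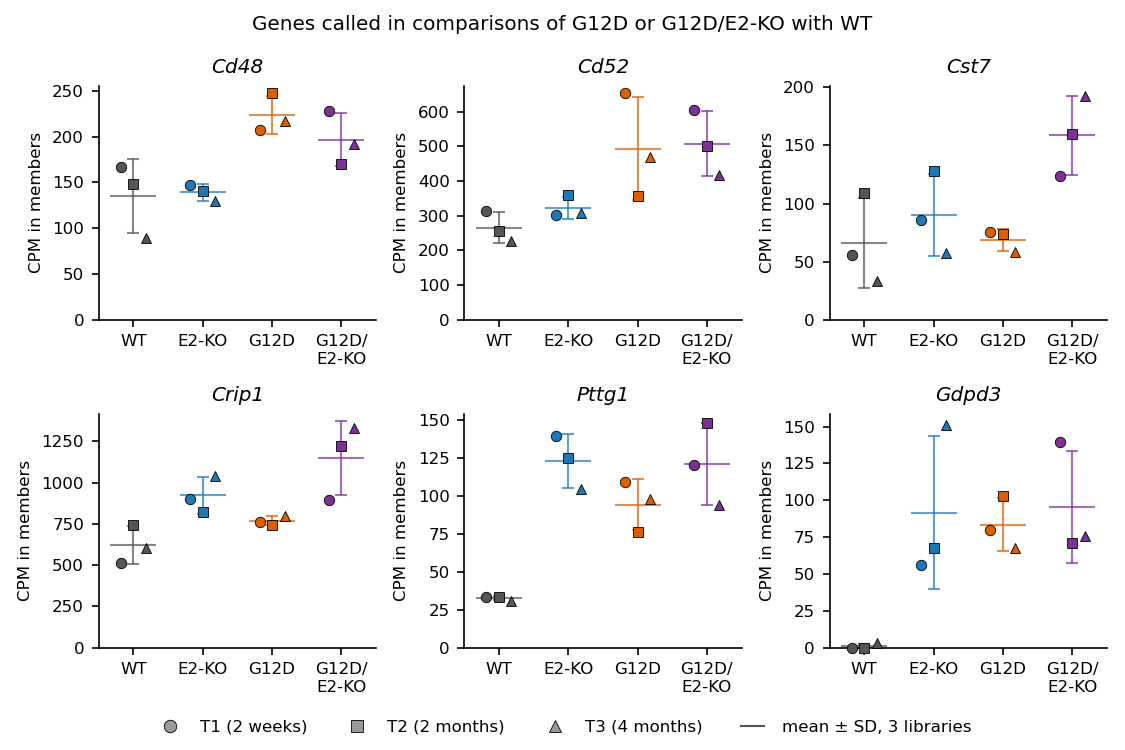
CPM in members of each library for 6 genes called in G12D or G12D/E2-KO against WT. Points are libraries (circle T1, square T2, triangle T3) and bars the mean ± SD of 3 libraries. Pttg1 and Gdpd3 are higher in all 9 mutant libraries than in all 3 WT libraries, and Cd52 in all 6 libraries with the NRas allele than in WT.

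Pttg1 and Gdpd3 rose in all 3 mutant genotypes, all of which differ from WT by Mx1-Cre. Pttg1, securin, holds sister chromatids together until anaphase. It was at 33.0, 33.3 and 30.9 CPM in WT, 139, 125 and 104 CPM in E2-KO members, 109, 76.0 and 97.8 CPM with G12D alone and 120.1, 148 and 94.0 CPM in G12D/E2-KO, with changes of 1.97, 1.67 and 1.96 on the log2 scale (adjusted p = 3.02e-05, 0.000224 and 4.49e-06), which held without each of the 12 libraries. The 28 mitosis genes as a list had medians of 0.08, −0.07 and 0.07 in the same comparisons. With 0.177 to 0.635% of all genes called there, their count of 0 called is no result. Gdpd3, a phospholipase-like enzyme, was listed at 0, 0 and 2.81 CPM in WT and lay between 55.8 and 151 CPM in the 9 mutant libraries. Its call was lost without any of the WT libraries in E2-KO and G12D against WT, and without WT T1 or T3 for the double mutant. Leaving out G12D/E2-KO T2 also ended it for both single mutants, and leaving out E2-KO T2 or G12D T1 did so for G12D. Pttg1 was also 1 of 3 genes with an interaction (0.0443% of the genes). Its G12D/E2-KO change was below the sum of both single changes (log2 −1.68, adjusted p = 0.0433), a call lost without 9 of the 12 libraries (0.0505 to 0.286). As WT lacks Mx1-Cre, a shift common to all mutant genotypes enters both single changes. The part of such a shift in the interaction cannot be told apart from that of the alleles.

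Several named calls concern genes with close copies, among which the authors' counting can split reads. Tpm3-rs7 was at 12.8 ± 2.45 CPM for WT, 68.1 ± 41.0 for E2-KO, 129 ± 48.7 for G12D and 14.4 ± 1.43 for G12D/E2-KO, which gave the strongest interaction (log2 −5.60, adjusted p = 9.78e-10). The sum of Tpm3 and Tpm3-rs7 lay between 173 and 265 CPM in all 12 libraries. Gm8730, a copy of the ribosomal gene Rplp0, rose in G12D and G12D/E2-KO against WT, with the calls lost in 6 and 7 of 21 alternatives. The sum of Rplp0 and Gm8730 was 8113 ± 638 CPM for WT, 7390 ± 1294 for E2-KO, 11050 ± 2683 for G12D and 9610 ± 1908 for G12D/E2-KO, with no test. The changes of Tpm3-rs7 and Gm8730 are uncertain because reads can be split.

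The lists for the Polycomb system and for fetal and stem cell identity are short too, beside the 0.0443 to 0.635% of all genes called, so a count of 0 is no result about them. Of 8 tested PRC2 genes, Ezh2 fell in every comparison of deleted with intact libraries and no other member passed the test. Suz12 had log2 values of 0.30, 0.11 and 0.66 and Eed of −0.14, −0.20 and −0.27 in E2-KO, G12D and G12D/E2-KO against WT. Of 15 tested PRC1 genes, Bmi1 alone was called. Of 20 tested stem cell identity genes 0 were called in any of the 6 comparisons, with medians of −0.18, −0.38 and −0.40 against WT. Meis1 measured 124 ± 18.2 CPM in WT and 83.4 ± 10.3, 79.6 ± 10.1 and 74.9 ± 16.3 CPM in E2-KO, G12D and G12D/E2-KO, and all 3 WT libraries lay above all 9 mutant ones, but the adjusted p was 0.0997 at the lowest. Procr was found in 9.02 ± 2.51% of WT members thinned to 3000 UMIs and in 1.72 ± 1.54, 4.34 ± 2.47 and 2.54 ± 1.49% in the same order (adjusted p of the level 0.532, 0.986 and 0.169), beside 0 to 0.312% of late granulocytes. Of 5 tested CDK inhibitor genes 0 were called. Cdkn2c had log2 values of 0.94, 0.03 and −0.38, and Cdkn1b of −0.69, 0.53 and −0.04.

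Hmga2, a fetal stem cell gene that Lin28b raises by removing the let-7 microRNA, did not pass the threshold. It was at 72.3, 9.09 and 14.0 CPM in WT and 44.0, 31.9 and 14.0 CPM in G12D, and at 112, 52.1 and 57.6 CPM in E2-KO members and 116, 118 and 51.1 CPM in G12D/E2-KO. WT T1 lay within the range of the Ezh2-deleted libraries. Against WT the log2 change was 1.41 for E2-KO (SE 0.443, adjusted p = 0.349) and 1.85 for G12D/E2-KO (SE 0.390, adjusted p = 0.0512). Between G12D/E2-KO and G12D it was 1.71 (SE 0.380, adjusted p = 0.112). Without WT T1 all 3 passed the threshold (adjusted p = 0.0168, 0.000367 and 0.00169). DESeq2 called Hmga2 in G12D/E2-KO against WT and against G12D (adjusted p = 0.00163 and 0.0108), and so did the fit with at least 5 of the 8 rule genes (0.00552 and 0.0457), while the fit with only the 2 genotypes compared called it in E2-KO against WT and in G12D/E2-KO against G12D (0.00308 and 0.00508). Thinned, Hmga2 was found in 8.68 ± 7.64% of WT, 20.5 ± 8.97% of E2-KO, 5.48 ± 2.96% of G12D and 23.6 ± 7.65% of G12D/E2-KO members, and in at most 0.576% of late granulocytes. Cells with both Hmga2 and Flt3 made up 3.36 ± 4.99, 7.77 ± 5.82, 2.11 ± 1.73 and 8.00 ± 6.38% in the same order. Flt3 is a gene of the rule that chose the members, so these shares are partly set by it.

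The study named genes on these same libraries, which are therefore not independent evidence, and 9 of a fixed list of 10 of them could be tested. Fabp5, which the study named too, is not in that list and was called in G12D/E2-KO against WT (log2 change 0.99, adjusted p = 0.00822). Crip1 rose in G12D/E2-KO and the list had a median log2 change of 0.93 there, against 0.15 in E2-KO and 0.14 in G12D. Gem, a small GTPase of the RGK family, had the highest log2 value of the list there. It was at 12.4, 6.06 and 14.0 CPM in WT, 27.9, 2.61 and 14.4 CPM in E2-KO members, 87.0, 2.45 and 52.4 CPM with G12D alone and 43.7, 79.4 and 425 CPM in G12D/E2-KO. Its change against WT of 3.91 in G12D/E2-KO did not pass the threshold (SE 1.11, adjusted p = 0.264) but did under DESeq2 (4.04, adjusted p = 0.0101), in a fit of these 2 genotypes alone (8.11e-05) and without G12D/E2-KO T1 (5.05, 4.71e-11). Pdgfrb, a growth factor receptor, was at 25.2, 24.5 and 25.6 CPM in G12D and 44.7, 58.3 and 106 CPM in G12D/E2-KO (log2 change 1.34, adjusted p = 0.0678). It passed the threshold with no filter (0.000558), with at least 5 of the 8 rule genes (0.0273), and without E2-KO T3 (0.0143) or G12D/E2-KO T1 (0.00520). Ly6e and Gata2 lay at 732 ± 90.3 and 62.5 ± 37.2 CPM in G12D/E2-KO against 599 ± 60.4 and 57.5 ± 4.38 CPM in WT, without a call. Ets1 had log2 values between −0.25 and 0.40 and Gcnt2 between −0.23 and 0.04.

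Lineage priming, the low expression of fate genes before commitment, was described by 3 fixed lists. Of 12 lymphoid genes, Cd48 and Cd52 rose in G12D and Cd52 was among those that rose in G12D/E2-KO against WT, with medians of 0.44, 0.34 and 0.44 in E2-KO, G12D and G12D/E2-KO. Dntt, the terminal transferase of early lymphoid cells, was at 277, 354 and 136 CPM in WT and 482, 454 and 777 CPM in E2-KO (log2 change 1.38, adjusted p = 0.732). Of 20 myeloid genes Ap3s1 alone rose in E2-KO and G12D/E2-KO against WT. Of 11 megakaryocyte-erythroid genes 0 were called. The T and NK, macrophage and megakaryocyte marker lists had 0 genes that passed the filter on low counts. Basophil and mast markers had a median of 1.01 in G12D/E2-KO against WT with 0 of 4 called. All these lists are short beside the 0.177 to 0.635% of all genes called against WT, so a count of 0 or 1 is no result about them.

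Between 2 weeks and 2 months after pIpC, 7 of 6772 genes changed over all genotypes (0.103%), 2 higher (0.0295%) and 5 lower (0.0738%), with 562 at an unadjusted p below 0.05. Pcna, the sliding clamp of DNA replication, rose from 68.1 to 119.6 CPM for WT, 91.3 to 154 for E2-KO, 50.3 to 118 for G12D and 90.3 to 131 for G12D/E2-KO (log2 change 0.78, adjusted p = 0.0486). Gsto1, a glutathione transferase, rose by 0.95. Hp, Pglyrp1 and Ifitm6, genes of granulocytes, fell by 1.83, 1.30 and 1.83 on the log2 scale, and 10 of 10 late granulocyte markers were lower at T2, with a median of −0.98. DESeq2 called 0 genes in this comparison, and none of the 7 calls held under all alternatives, the Pcna call being lost in 14 of 19. The 25 interferon genes had a median of −0.45 from T1 to T2, with 0 called.

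Members were set beside their closest relatives, 4481 progenitors with high Mpo, Elane and Ctsg (granule-gene progenitors) and 3227 Car1-positive progenitors, and the difference of the mutant change between cell sets was tested itself. In G12D/E2-KO against WT 64 of 9234 genes differed from granule-gene progenitors (0.693%) and 76 of 9710 from Car1-positive progenitors (0.783%). For E2-KO these counts were 17 (0.184%) and 6 (0.0618%), and for G12D 11 (0.119%) and 9 (0.0927%). Bcl2, a survival factor of stem and lymphoid cells, averaged 107 CPM in WT and 167 CPM in E2-KO members, against 54.2 and 26.5 CPM in granule-gene progenitors (difference 1.60 on the log2 scale, adjusted p = 4.41e-06). Cd48 differed in G12D/E2-KO: it went from 135 to 197 CPM in members and from 129 to 88.0 CPM in granule-gene progenitors (difference 1.17, adjusted p = 2.61e-06). Pde4d, a cyclic AMP phosphodiesterase, stood at 41.2 CPM in WT and 113 CPM in G12D/E2-KO members, and its change exceeded that in both neighbours, by 1.67 and 2.02. For Cst7 the difference from granule-gene progenitors was 1.26.

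Against the Car1-positive progenitors, the Bex1 change went the other way, with a smaller rise in members. Bex1 was at 34.4 CPM in WT and 61.0 CPM in E2-KO members, and at 1.09 and 19.1 CPM in the Car1-positive cells (difference −3.17, adjusted p = 0.000328). The difference rests on the low level of 1.09 CPM in WT Car1-positive cells. For Serpina3g and Ndrg1 in G12D/E2-KO and Isg15 in G12D the mutant change was likewise lower in members than in Car1-positive cells, with differences of −2.98, −2.92 and −1.79. Aqp1, a water channel of red cells, differed in G12D with 31.5 CPM in WT members against 5.83 CPM in G12D members (difference −2.46). For the granulocyte genes Lyz2 and Ltf the mutant change was lower in members than in granule-gene progenitors. The late granulocyte genes that the neighbour rule capped (S100a8, S100a9, Camp and Ngp) are no result in these comparisons. That cap held for granule-gene progenitors and not for members. The differences of Lyz2 and Ltf from those progenitors can therefore be partly set by the rule and are no result either. The Aqp1 call was lost without WT T1 or G12D T1 and the Isg15 call without WT T1 or T3 or G12D T1 or T3. Only the 5 calls with the smallest p per genotype and neighbour were followed through the alternatives, and the other calls were not. Against granule-gene progenitors 4 of these 5 held under all alternatives for E2-KO, 1 for G12D and 5 for G12D/E2-KO. Camp, which is no result, is among the 5 in E2-KO and G12D. Against Car1-positive progenitors 2, 0 and 5 held. In members, the 5 tested late erythroid markers had medians of −0.64, −2.84 and −2.53 in E2-KO, G12D and G12D/E2-KO against WT, and the 10 tested late granulocyte markers −1.98, −0.92 and −1.31, of which 2 were called, both in E2-KO. Their part in these differences was not tested.

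The G12D/E2-KO T3 library stood apart. Taking genes at least 2-fold beyond the range of the other 11 libraries with a floor of 40 CPM, 10 genes lay above and 6 below, against 11 and 19 in E2-KO T3, the library with the fewest members (64), 6 and 1 in G12D T3, and at most 3 in either direction in the others. Gem was at 425 CPM against 2.45 to 87.0 CPM elsewhere, and was found in 62.5% of the members of this library thinned to 3000 UMIs (55 of 88). Itga2b, the CD41 integrin of megakaryocytes and early stem cells, was at 108 CPM against at most 25.2, the mast cell protease Cpa3 at 139 against at most 40.02, and the metallothionein Mt1 at 337 against at most 128. On the other side Dntt was at 12.3 CPM against at least 136, Ifi27l2a at 4.09 against at least 46.3 and Ifitm3 at 139 against at least 416. The other cells of this library lay outside those of the other libraries as well for these 7 genes, for example at 27.2 CPM against at most 3.52 for Gem, 63.6 against at most 17.8 for Itga2b, 1007 against at most 792 for Mt1 and 153 against at least 188 for Ifitm3. These genes were chosen for lying outside, which is a description with no test. With 1 library the time point and the animal cannot be told apart, and this library held Ddx3y while the other T3 libraries held Xist. Itga2b and Mt1 were named after their values were seen.

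**Figure D5:**
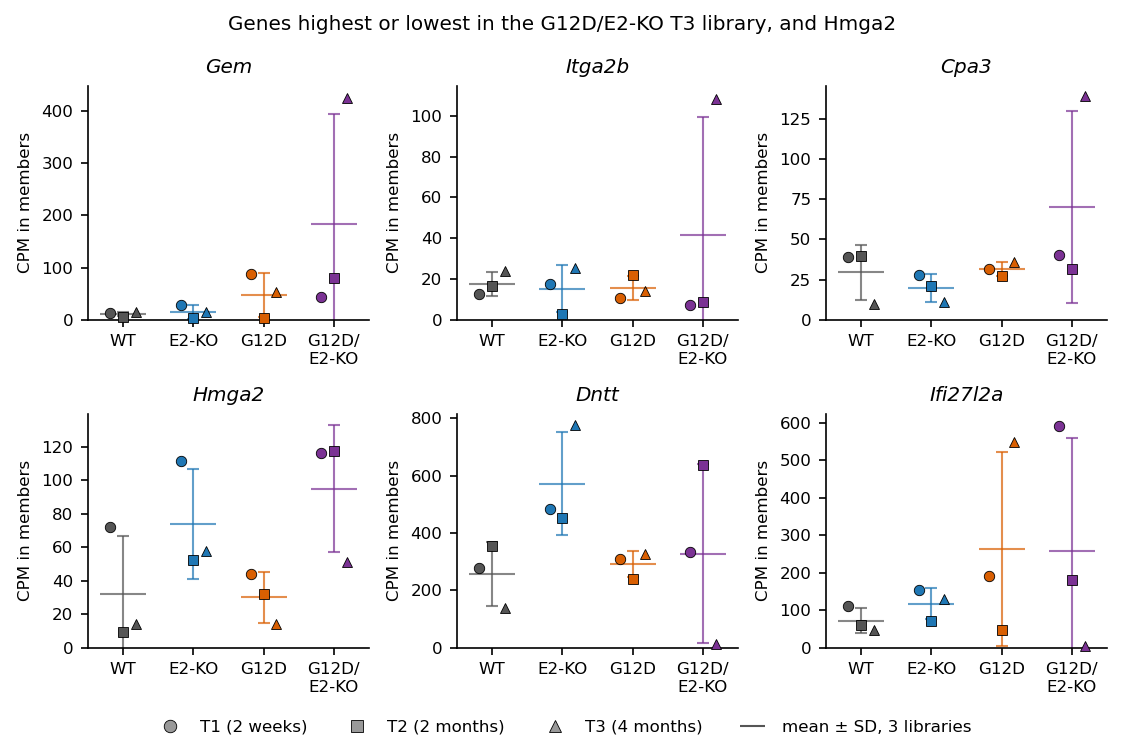
CPM in members of each library for 5 genes that are highest or lowest in G12D/E2-KO T3, and for Hmga2. Points are libraries (circle T1, square T2, triangle T3) and bars the mean ± SD of 3 libraries, cut at 0. The triangle of G12D/E2-KO lies at 425 CPM for Gem, 108 for Itga2b and 139 for Cpa3, and at 12.3 for Dntt and 4.09 for Ifi27l2a.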

How the data were processed

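Cell-by-gene tables of UMI counts for 12 libraries were used as deposited. The authors made these counts with Cell Ranger on mm10, 1 library at a time, removed cells above 10% mitochondrial counts and took out doublets with Scrublet before deposit, so no doublet caller was run again. Each table had 27998 gene columns. The row names count time points from T0, while the labels count from T1, and the labels were used.

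Members were found by the gene rule, and their UMIs were summed per library. Sums were fitted with edgeR 4.0.16 (quasi-likelihood, TMM) on genotype and time point, which leaves 6 residual degrees of freedom, over the 6772 genes that passed the filter on low counts, with Benjamini-Hochberg adjustment and a threshold of 0.05. The members, lists and tests were chosen with earlier results of these data known. Genes were named by a rule: Ezh2 and Nras, up to 8 called rises and 8 called falls per comparison that kept their direction at each time point and reached 10 CPM, and called or most abundant members of lists, with exceptions said to be named after their values were seen. The difference from neighbouring cell sets was tested in 1 model over both. Granule-gene progenitors were to hold fewer than 10 late granulocyte UMIs per 10000, which left 49 cells and 0 in 8 libraries, so 200 was used instead. Time point serves as the replicate block because the study's labels share it across genotypes: deviations of same-time libraries had a median correlation of 0.0976, with 8 of 18 pairs above 0.1. For E2-KO against WT, on simulated counts of 6579 genes, 45.37% of genes changed by 1 and 82.61% of genes changed by 2 on the log2 scale were recovered, with 2 false calls. For the difference between cell sets 25% and 72.83% were recovered. The changed genes were drawn only from those above a level floor and no time effect was simulated, so recovery of low genes is not covered. Alternatives were DESeq2 1.42.0, its size factors, no filter, no block, other member rules, other samples and each library left out. Coordinates are those of GENCODE on GRCm38. Intervals and shares cover counting error only. Some named genes that meet the rule are not reported here.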

Additional observations from a re-analysis of the deposited data

Results flagged for a closer look

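Several genes changed differently from what the single mutants would add up to, or changed differently in members than in neighbouring progenitors, each by a test of the difference itself (edgeR's quasi-likelihood test, Benjamini-Hochberg adjustment). The values are log2 differences, and no explanation was weighed. For the NRas by Ezh2 interaction in members they were −5.60 for Tpm3-rs7, −4.53 for Gm7102 and −1.68 for Pttg1. WT lacks Mx1-Cre, so a shift common to all mutant genotypes enters both single changes, and its part cannot be told apart from that of the alleles. Of 20 alternatives, the call was lost in 12 for Gm7102 and in 13 for Pttg1, and in 0 for Tpm3-rs7. The Tpm3-rs7 value is uncertain all the same, because reads can be split between it and Tpm3. The sum of both lay between 173 and 265 CPM in all 12 libraries. Gm7102 and Gdpd3 had 0 to 3 UMIs in WT members, so their values depend on the prior count.

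Against granule-gene progenitors, the E2-KO change was higher in members for Gdpd3 (4.69), Bcl2 (1.60) and AW112010 (1.18) and lower for Bex4 (−2.52). For G12D it was higher for Gdpd3 (4.07) and lower for Lyz2 (−0.74), Ltf (−1.10) and Cybb (−1.96). For G12D/E2-KO it was higher for Gdpd3 (4.80), Pde4d (1.67), Cst7 (1.26) and Cd48 (1.17) and lower for Lyz2 (−1.13).

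Against Car1-positive progenitors, the E2-KO change was higher in members for Ap3s1 (0.89) and lower for Bex1 (−3.17), Hdgfrp3 (−3.11), Fkbp1a (−1.34) and Nrgn (−1.02). For G12D it was lower for Aqp1 (−2.46), Isg15 (−1.79), Ltf (−1.04) and Tuba4a (−1.01). For G12D/E2-KO it was higher for Pde4d (2.02) and lower for Serpina3g (−2.98), Igfbp4 (−1.45), Ndrg1 (−2.92) and Bex1 (−3.14). Of the calls for these differences, those of Lyz2, Ltf and Cybb in G12D against granule-gene progenitors, of Ap3s1, Fkbp1a and Nrgn in E2-KO against Car1-positive progenitors and of Aqp1, Isg15, Ltf and Tuba4a in G12D against the same cells were lost in 3 to 5 of 16 alternatives. Lyz2, Ltf and Cybb are granulocyte genes and Aqp1 is a red cell gene, whose summed markers moved with genotype in members, and their part was not tested. Late granulocyte RNA was capped in granule-gene progenitors and not in members. The differences of Lyz2, Ltf and Cybb from those progenitors can therefore be partly set by the rule and are no result. Globin RNA was capped in Car1-positive progenitors and not in members, so the Aqp1 difference from those cells is no result either.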

How the results depend on the processing

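Depth limits what can be seen, since members of a library held 277915 to 1074478 UMIs. Of the named called genes, calls held under all alternatives for 4 of 15 in E2-KO against WT, 2 of 12 in G12D against WT, 5 of 19 in G12D/E2-KO against WT, 4 of 9 in G12D/E2-KO against G12D, 1 of 3 interactions and 0 of 7 in T2 against T1, and none of them reversed. Without the time point as replicate block, 11, 3 and 16 genes were called in E2-KO, G12D and G12D/E2-KO against WT, and the NRas share difference of 1.34 points had an exact permutation p of 0.0281. T2 against T1 has no fit without the block. With no filter the counts were 46, 46, 132, 60 (G12D/E2-KO against G12D), 17 (interaction) and 53 (T2 against T1), and with only the 2 genotypes compared 62, 39 and 28. With at least 5 of the 8 rule genes they were 12 in E2-KO against WT, 15 in G12D/E2-KO against G12D and 13 in T2 against T1, and with T1 and T2 only 26, 17 (interaction) and 40. The tables as deposited gave 4 in G12D/E2-KO against G12D, and DESeq2 gave 0 in T2 against T1. Leaving out the 21 cells with much granulocyte or globin RNA, an alternative chosen after seeing the data, gave 1 interaction and 3 genes in T2 against T1. With T1 and T2 only, Ifi27l2a in G12D/E2-KO against G12D turned to 1.66 on the log2 scale. For differences from granule-gene progenitors the counts were 17 (no filter) and 4 (5 of 8 genes) in G12D and 32 (5 of 8) in G12D/E2-KO. For those from Car1-positive progenitors they were 18 (no filter) in E2-KO, 14 (size factors of DESeq2), 22 (no filter), 4 (5 of 8) and 14 (as deposited) in G12D, and 151 (no filter) and 48 (5 of 8) in G12D/E2-KO. The cause of these shifts was not tested. Leaving out 1 library gave 6 (without E2-KO T1) to 37 (without G12D/E2-KO T3) genes in E2-KO against WT, 3 (WT T1) to 34 (G12D/E2-KO T3) in G12D against WT, 6 (WT T3) to 61 (G12D/E2-KO T3) in G12D/E2-KO against WT, 5 (G12D T1) to 28 (G12D/E2-KO T1) in G12D/E2-KO against G12D, 1 to 13 interactions and 0 (G12D T2) to 22 (G12D/E2-KO T3) in T2 against T1. The differences from granule-gene progenitors ran from 9 to 51, 3 to 28 and 28 to 96 in E2-KO, G12D and G12D/E2-KO, and those from Car1-positive progenitors from 2 to 17, 3 to 19 and 22 to 145. The share differences ran from −1.01 to −0.182 points for Ezh2 and from 1.04 to 1.70 for NRas.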

Other observations

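Cytokine receptors had a median log2 change of 0.21, 0.03 and 0.20 in E2-KO, G12D and G12D/E2-KO against WT over 20 tested genes. Hoxa7, a Hox gene of early progenitors, stood at 61.1 ± 14.4 CPM for WT, 32.6 ± 12.6 for E2-KO, 63.9 ± 2.98 for G12D and 33.8 ± 4.58 for G12D/E2-KO, with adjusted p = 0.356 in E2-KO against WT and 0.0870 in G12D/E2-KO against G12D (edgeR's quasi-likelihood test).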
